A study of Mus musculus with 24 samples.

Results

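The hypothalamus of control mice was compared with liver, inguinal white adipose tissue (iWAT) and gastrocnemius muscle (GM) of control mice, to describe which transcripts set this brain region apart from the 3 peripheral tissues. Its members are the 3 hypothalamus libraries labelled Ctrl, of 24 RNA-seq libraries in all, and they were set against the 9 Ctrl libraries of the other tissues, 3 per tissue. The 12 libraries of mice that lacked *Crif1* in hepatocytes (LKO) were not used. Ctrl mice carried the floxed allele, Crif1flox/flox, without the Alb-Cre transgene, were of the C57BL/6 strain, ate a chow diet and are labelled as 8 weeks old, in all 4 tissues. Whether 1 mouse gave all 4 tissues is not stated in the labels, so the libraries were taken as independent, and p-values measure the spread between these samples. Values are FPKM as the authors deposited them, a level in which fragments are counted per kilobase of transcript and set relative to the library's total. Values of 3 libraries are always given in the order Ctrl 1, Ctrl 2 and Ctrl 3.

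The hypothalamus is a small part of the ventral forebrain in which many kinds of neuron lie close together, each marked by the neuropeptides it makes. Peptide precursors are cut and modified inside secretory granules and are released to act on receptors in the brain, on the pituitary or in the blood, and by this route the hypothalamus governs feeding, energy use, water balance, sleep, stress and reproduction. *Pmch*, for melanin-concentrating hormone, and *Hcrt*, for the orexin peptides, are made by neurons of the lateral hypothalamus, and were used as the check of the tissue label. *Pmch* (NCBI Gene 110312, chr10:88091072-88092374) was at 541, 788 and 954 FPKM in the hypothalamus, and it was listed at 0 in 8 of the 9 other libraries and at 0.764 FPKM in GM Ctrl 1. *Hcrt* (NCBI Gene 15171, chr11:100761693-100762931) was at 233, 339.5 and 308 FPKM and listed at 0 in all 9 other libraries. Both markers were thus present in each hypothalamus library and at or near 0 elsewhere.

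Promoter sequences are shown for 7 genes of the peptide system, because the levels of these genes carry the comparison and because the stretches hold short motifs with a known name. They are the 120 bases before the transcription start in RefSeq on GRCm38.p6, the assembly behind mm10, from 5′ to 3′ on the strand of the gene. Positions are counted from the start, with the last base before it as -1, and capitals mark TATAAA (the TATA box) in *Pmch* at -27 and *Hcrt* at -33, or TGACGTCA (the cAMP response element, CRE) in *Sst* at -48, *Cartpt* at -112, *Scg2* at -68, *Chgb* at -72 and *Pcsk1* at -78. *Pmch* lies at chr10:88090952-88091071 on the plus strand, *Hcrt* at chr11:100762932-100763051 on the minus strand, *Sst* at chr16:23890845-23890964 on the minus strand and *Cartpt* at chr13:99900684-99900803 on the minus strand. *Scg2* lies at chr1:79440027-79440146 on the minus strand, *Chgb* at chr2:132781522-132781641 on the plus strand and *Pcsk1* at chr13:75089737-75089856 on the plus strand.
Pmch: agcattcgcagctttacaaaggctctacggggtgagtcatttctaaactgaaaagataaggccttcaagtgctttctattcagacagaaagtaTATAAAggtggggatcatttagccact
Hcrt: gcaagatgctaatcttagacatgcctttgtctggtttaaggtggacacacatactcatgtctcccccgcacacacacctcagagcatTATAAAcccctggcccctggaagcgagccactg
Sst: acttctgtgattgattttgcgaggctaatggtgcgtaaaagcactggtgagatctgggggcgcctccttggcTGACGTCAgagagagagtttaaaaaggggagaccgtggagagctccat
Cartpt: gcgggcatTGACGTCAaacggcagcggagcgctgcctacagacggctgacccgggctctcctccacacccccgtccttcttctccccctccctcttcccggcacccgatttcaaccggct
Scg2: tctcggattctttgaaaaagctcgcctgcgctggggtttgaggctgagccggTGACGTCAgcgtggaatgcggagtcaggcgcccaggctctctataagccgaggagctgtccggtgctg
Chgb: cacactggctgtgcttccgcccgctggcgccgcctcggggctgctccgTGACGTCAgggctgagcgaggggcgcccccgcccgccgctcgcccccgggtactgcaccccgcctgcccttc
Pcsk1: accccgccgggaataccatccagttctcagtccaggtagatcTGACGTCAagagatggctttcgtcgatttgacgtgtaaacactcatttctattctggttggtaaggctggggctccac

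The motifs were searched on both strands from 250 bases before to 50 bases after the start, in windows of 27025 RefSeq genes, of which 11942 were tested for a difference between tissues. CRE is its own reverse complement and is bound by CREB, a factor that cAMP signalling activates. It was found in 5 of 33 neuropeptide and granule genes with a window (*Scg2*, *Chgb*, *Ucn*, *Cartpt* and *Sst*), which is 15.2%, against 2.03% of all genes with a window and 3.32% of the tested ones. TATAAA was found in 10 of the 33 (30.3%), against 15.7% of all genes and 9.9% of the tested ones. Over the genes with a window that were called higher in the hypothalamus than in each other tissue, as defined below, CRE was found in 93 of 2755 (3.38%) and TATAAA in 9.04%. A match is a description of the letters, and binding was not measured.

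Bases around another motif are shown for 7 genes, because in these windows it occurred in so few genes. RE1 is the site of REST, a repressor that keeps neuronal genes silent outside the nervous system, and its core, CAGCACC and GGACAG with any 2 bases between them (no overlap with the other motifs), was searched on both strands. It was found in 11 of 27025 windows (0.0407%), and 8 of these genes were tested (0.067% of 11942). All 8 were higher in the hypothalamus than in each other tissue (0.29% of 2755), and it was found in 0 of 9008 tested genes that were neither higher nor lower and in 0 of 179 that were lower. Of the 8, all but *Osbp2* reached 1 FPKM in the hypothalamus alone and passed the filter through it, as did 1771 tested genes of which 1626 were called higher, and nothing is read from this count. These genes were named after the search. The 59 bases shown have the core in capitals, which reads CTGTCC to GGTGCTG where the match is on the other strand, and the first base of the core is at -102 in *Fam163b*, -183 in *Hrh3*, -98 in *Sptbn4*, -177 in *Lca5*, -139 in *Osbp2*, -188 in *Fbll1* and -103 in *Ogdhl*. *Fam163b* lies at chr2:27142543-27142601 on the minus strand, *Hrh3* at chr2:180104554-180104612 on the minus strand, *Sptbn4* at chr7:27396260-27396318 on the minus strand and *Lca5* at chr9:83441268-83441326 on the minus strand. *Osbp2* lies at chr11:3774771-3774829 on the minus strand, *Fbll1* at chr11:35799036-35799094 on the minus strand and *Ogdhl* at chr14:32321894-32321952 on the plus strand.
Fam163b: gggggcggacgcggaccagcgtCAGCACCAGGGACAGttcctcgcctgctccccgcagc
Hrh3: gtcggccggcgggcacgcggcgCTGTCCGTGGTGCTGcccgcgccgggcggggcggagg
Sptbn4: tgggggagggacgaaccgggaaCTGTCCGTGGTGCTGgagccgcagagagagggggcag
Lca5: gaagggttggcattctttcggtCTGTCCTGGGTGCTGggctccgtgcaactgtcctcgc
Osbp2: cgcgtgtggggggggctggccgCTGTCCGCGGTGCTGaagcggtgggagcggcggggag
Fbll1: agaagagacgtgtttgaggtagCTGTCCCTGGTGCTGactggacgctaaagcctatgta
Ogdhl: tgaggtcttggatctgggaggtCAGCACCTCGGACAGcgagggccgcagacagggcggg

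The 8 genes with this core ranged widely in level. *Hrh3*, the presynaptic histamine receptor, was at 33.2, 39.3 and 46.6 FPKM, and *Sptbn4*, a spectrin of the axon initial segment, at 43.6, 47.8 and 55.98 FPKM. *Ogdhl*, a brain form of a subunit of 2-oxoglutarate dehydrogenase, was at 50.3, 45.98 and 44.3 FPKM and *Fbll1*, a fibrillarin-like protein, at 31.1, 35.1 and 39.9 FPKM. *Ttc9b*, whose match lies after the start and is not shown, was at 28.1, 38.7 and 48.9 FPKM, *Fam163b* at 17.7, 16.98 and 15.7, *Osbp2*, an oxysterol-binding protein, at 9.07, 8.76 and 8.88 and *Lca5*, a cilium protein, at 3.40, 3.14 and 3.08 FPKM. Their log2 differences from the mean of the other tissues ran from 1.70 for *Lca5* to 5.61 for *Sptbn4*.

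Of 24532 genes in the table, 20637 were above 0 in any of the 12 Ctrl libraries and 15320 reached at least 1 FPKM in at least 3 of them and were tested. limma was fitted to log2(FPKM + 1) with a mean for each tissue and a trended prior variance, so that all differences below are on that scale and understate the change of low genes. A log2 difference without further note, also one given in brackets after a level, is that of the hypothalamus from the mean of the 3 other tissues. Where a gene is listed at 0 elsewhere, its size is set by the hypothalamus level and the added 1. A gene was called higher or lower than each where the hypothalamus differed at least 2-fold, with a Benjamini-Hochberg adjusted p under 0.05, from liver, from iWAT and from GM in the same direction. By this rule 3603 genes (23.5% of those tested) were higher in the hypothalamus than in each other tissue and 229 (1.49%) were lower than in each. In the contrast with liver 7585 genes (49.5%) were higher and 1722 (11.2%) lower, with iWAT 4391 (28.7%) and 2483 (16.2%), and with GM 7009 (45.8%) and 1475 (9.63%). The 3 contrasts share the hypothalamus libraries. Against the mean of the 3 other tissues, 5853 genes (38.2%) were higher and 1758 (11.5%) lower. All 3 hypothalamus libraries lay above all 9 others for 6500 genes (42.4%) and below them for 873 (5.7%).

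How the libraries are scaled bears on these counts. The median log2 difference of all tested genes was 0.98 against liver, 0.27 against iWAT, 0.86 against GM and 0.63 against the mean of the 3. With median-ratio scaling of the libraries these medians were 0.14, 0.10, 0.09 and -0.00, and 2569 genes were higher and 699 lower than each, so that the share of calls that were higher went from 94.0% to 78.6%. Quantile normalization gave 2209 and 1096 (66.8% higher). Of the 3603 genes, 2569 were called higher after median-ratio scaling and 2178 after quantile normalization, and the 229 lower genes were called lower in both. With TPM 4691 genes were higher, all 3603 among them, and 188 lower, with 167 of the 229 among them. In the hypothalamus the 10 most abundant genes held 3.95% to 5.03% of the summed FPKM, against 16.1% to 35.2% in the other tissues, and 13768 to 13814 genes reached 1 FPKM, against 10241 to 12303. Because the filter lets a gene pass on the hypothalamus alone, 1771 tested genes reached 1 FPKM there and in no other library, and 1626 of them were called higher. Of the 13549 that also reached 1 FPKM elsewhere, 1977 (14.6%) were called higher. The counts of list members given below are to be read beside these shares and the 23.5% of all tested genes.

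Depth, worked out from how coverage relates to FPKM, was 4.47, 7.59 and 5.52 gigabases for the hypothalamus libraries, within the 4.47 to 8.09 of all 12, and counting errors of single genes cannot be given. Correlations across genes on log2(FPKM + 1) were 0.9824 to 0.9911 (Pearson) between hypothalamus libraries and 0.339 to 0.554 with libraries of other tissues, where genes are not independent replicates. Traces of one tissue were seen in libraries of another. In GM Ctrl 1, 20 of the 22 neuropeptide and granule genes with a hypothalamus mean of at least 20 FPKM were above 0, at a median of 0.353% of that mean, against at most 0.0313% in any of the 8 other libraries. In hypothalamus Ctrl 3, 14 of 14 hepatocyte genes were above 0, at a median of 0.0657% of the liver mean, against 0.00691% and 0.00473% in Ctrl 1 and Ctrl 2. In GM Ctrl 1, Ctrl 2 and Ctrl 3 this median was 0.446%, 0.0333% and 0.362%, with 14 of 14 genes above 0, and in iWAT at most 0.00710%. Without GM Ctrl 1 the counts were 3612 higher and 219 lower, and without hypothalamus Ctrl 3 they were 3624 and 243. *Crif1*, listed as *Gadd45gip1* (NCBI Gene 102060, chr8:84832282-84835482), a protein of the mitochondrial ribosome, was at 25.1, 25.9 and 27.98 FPKM in the hypothalamus and between 11.6 and 15.99 FPKM elsewhere. The groups did not overlap, but the log2 difference from the mean of 0.89 (SE 0.092, limma adjusted p = 1.54e-06) was under 2-fold. With TPM it was 1.29 and *Gadd45gip1* was called higher than each.

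Transcripts for neuropeptides and for the proteins of their granules were abundant in the hypothalamus and low or listed at 0 in most of the other libraries. Of 41 listed genes, 35 were tested and 32 were higher in the hypothalamus than in each other tissue, while 3 were neither higher nor lower. Their median log2 difference from the mean of the other tissues was 5.57, where that of all tested genes was 0.63, and 25 of the 35 reached 1 FPKM in no other tissue. The 3 were *Gnrh1*, *Ucn* and *Npff*, and the 6 not tested (*Galp*, *Nms*, *Nmu*, *Ucn3*, *Qrfp* and *Prok2*) did not reach 1 FPKM in 3 libraries. In such bulk samples, fewer cells of a type and less RNA per cell cannot be told apart.

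Among the peptides of feeding neurons, *Pmch* had the highest level, with a mean of 761 ± 208 FPKM (SD, n = 3) and a log2 difference of 9.44 (SE 0.18, limma adjusted p = 2.85e-13). Its span overlaps that of Parpbp on the opposite strand. *Hcrt* was at 293 ± 54.9 FPKM (SD, n = 3), with an adjusted p of 7.2e-15 by the same test. *Pomc*, the precursor of the melanocortins that curb feeding, was at 37.1, 76.6 and 90.9 FPKM and at most 0.528 FPKM elsewhere. *Agrp* and *Npy*, made together by neurons that promote feeding, were at 9.62, 15.6 and 7.37 FPKM and 49.6, 64.2 and 43.4 FPKM, with log2 differences of 3.19 and 5.57. *Cartpt*, whose peptide curbs feeding, was at 76.5, 117 and 164 FPKM (log2 difference 6.83, SE 0.16, adjusted p = 1.74e-12). *Pmch*, *Pomc* and *Cartpt* were lowest in Ctrl 1 and highest in Ctrl 3, and for each of these 6 genes the hypothalamus libraries lay above all 9 others.

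The hormones of the posterior pituitary were also abundant, below *Pmch* in the mean. *Avp*, for vasopressin, was at 514, 705 and 820.3 FPKM, with a log2 difference of 9.23 (SE 0.19, limma adjusted p = 5.06e-13). *Oxt*, for oxytocin, was at 508, 555 and 297 FPKM (log2 difference 8.50, SE 0.31, adjusted p = 8.88e-11), with Ctrl 3 the lowest. Both were listed at 0 in liver and iWAT, and the highest values elsewhere, 1.12 FPKM of *Avp* and 2.76 FPKM of *Oxt*, were those of GM Ctrl 1.

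The factors that control the anterior pituitary spanned a wide range. *Sst*, for somatostatin, which inhibits growth hormone, was at 202, 283 and 318 FPKM (log2 difference 7.88) and *Trh*, which drives thyrotropin, at 82.4, 102 and 80.2 FPKM (6.41). *Ghrh*, which drives growth hormone, was at 8.29, 15.6 and 18.9 FPKM and listed at 0 in all 9 other libraries. *Crh*, which drives the stress axis, was low at 4.90, 2.21 and 1.68 FPKM with Ctrl 1 the highest, and its log2 difference was 1.87 (call lost with quantile normalization). *Kiss1*, upstream of the reproductive axis, was low as well, at 2.21, 1.75 and 2.72 FPKM, and its call was lost with median-ratio scaling and with quantile normalization. *Gnrh1*, for gonadotropin-releasing hormone, was at 4.71, 2.40 and 3.09 FPKM against 1.26, 1.19 and 2.12 FPKM in iWAT, and was not called since its log2 difference from iWAT was 0.79, though it was called with a pseudocount of 0.1 and with TPM.

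Other peptides were shared with a peripheral tissue or listed at 0 in the hypothalamus. *Penk*, the precursor of the enkephalins, was at 135, 98.4 and 109.8 FPKM in the hypothalamus, 21.6, 27.3 and 27.96 FPKM in iWAT and 4.96, 4.78 and 3.37 FPKM in GM, and its log2 difference from iWAT was 2.11. *Ucn*, for urocortin, was listed at 0 in the hypothalamus and at 1.82, 2.66 and 2.93 FPKM in GM. *Npff* was at 2.20, 2.03 and 4.17 FPKM in the hypothalamus and 4.03, 4.86 and 3.90 FPKM in iWAT, where the libraries overlapped. Of the remaining opioid and tachykinin precursors, *Pdyn* was at 27.7, 34.4 and 37.7 FPKM, *Pnoc* at 12.3, 10.8 and 12.2 FPKM, *Tac1* at 78.8, 95.4 and 104 FPKM and *Tac2* at 54.1, 53.5 and 68.1 FPKM.

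Granule proteins, which pack and sort peptides, lay within the range of the peptides. *Scg2* was at 382, 430.0 and 447 FPKM (log2 difference 8.48), *Chga* at 186, 241 and 224 FPKM (7.55) and *Chgb* at 126, 152 and 154 FPKM (7.01). *Pcsk1n*, an inhibitor of the convertase PC1/3, was at 377, 518 and 737 FPKM with Ctrl 3 the highest (log2 difference 8.82), and its span overlaps those of several genes. The plot of peptide and granule genes shows all 41 in each library.

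**Figure D1:**
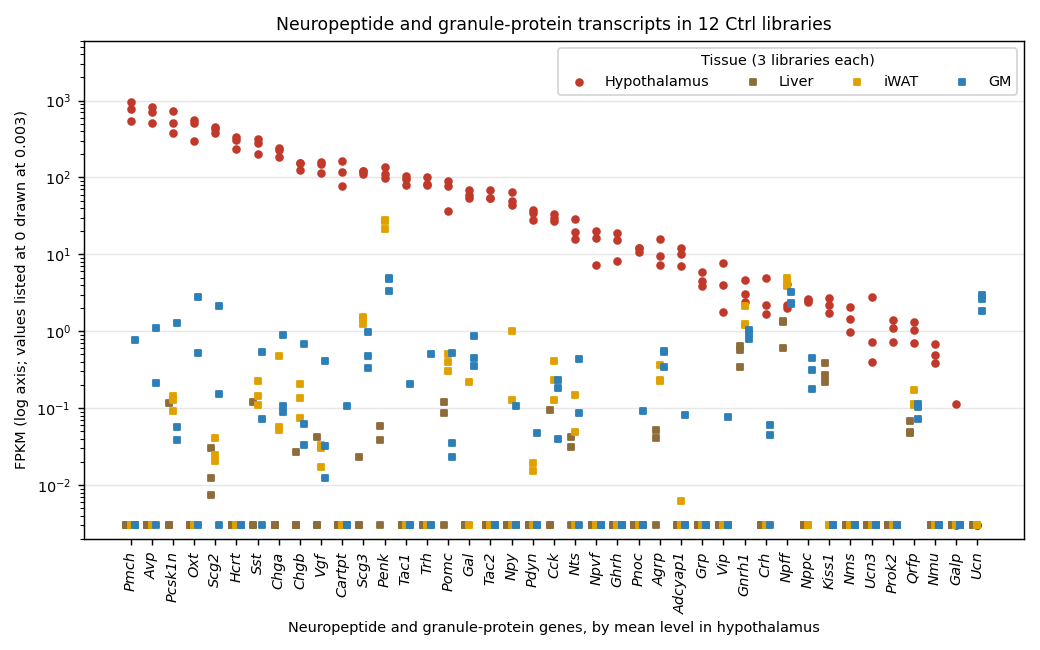
FPKM (log axis, with values listed at 0 drawn at 0.003) of the 41 neuropeptide and granule genes in the 12 Ctrl libraries, 1 point per library, coloured by tissue. The hypothalamus points sit above the others for most genes, from 541 to 954 FPKM for *Pmch*, while *Ucn* and *Npff* are exceeded by a library of another tissue and *Gnrh1* lies close to iWAT.

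Of 8 enzymes and chaperones that turn precursors into peptides, 6 were higher than in each other tissue, with a median log2 difference of 4.84 over the 8, and 2 reached 1 FPKM in the hypothalamus alone. *Cpe*, the carboxypeptidase that trims cut peptides, was the most abundant at 990.2, 998 and 1120.0 FPKM, and it was also present in GM at 125, 109 and 108 FPKM, so that its log2 difference was 6.08 from the mean and 3.17 from GM. The convertases *Pcsk2* and *Pcsk1*, which cut precursors at paired basic residues, were at 49.5, 50.8 and 46.98 FPKM and 19.5, 17.5 and 13.99 FPKM, and both were at most 0.200 FPKM elsewhere. *Pam*, which amidates peptide ends, was at 82.2, 91.8 and 93.9 FPKM against 20.9 to 26.2 FPKM in iWAT (log2 difference from the mean 3.12). *Qpct*, which forms pyroglutamate ends, was at 17.4, 18.4 and 17.5 FPKM in the hypothalamus and 13.8, 20.8 and 16.8 FPKM in iWAT, and was not called. The sixth gene that was higher, *Scg5*, a chaperone of the convertase PC2, was at 192, 212 and 233 FPKM.

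Receptors for peptides and hormones were far less abundant than the peptides. Of 55 listed, 47 were tested, 32 were higher than in each other tissue, 1 was lower and 14 were neither, with a median log2 difference of 1.74 and a median hypothalamus level of 3.74 FPKM over the 47. With quantile normalization 19 were higher. The lists of peptides and of processing enzymes had medians of 58.6 and 69.2 FPKM. Of the 47, 26 reached 1 FPKM in the hypothalamus alone and so passed the filter through it. The 8 not tested were *Avpr1b*, *Galr2*, *Oprm1*, *Oprd1*, *Prokr2*, *Ghsr*, *Glp1r* and *Gfral*, at most 2.08 FPKM in any hypothalamus library.

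In order of level, the first 4 receptors were *Thra*, *Ntsr2*, *Adcyap1r1* and *Oprl1*. *Thra*, for a nuclear receptor of thyroid hormone, was at 279, 299 and 320.3 FPKM (log2 difference 3.24), and its span overlaps Nr1d1 on the opposite strand. *Ntsr2*, a neurotensin receptor, was at 114, 131 and 149 FPKM (6.30), *Adcyap1r1*, the receptor of PACAP, at 76.8, 67.4 and 58.8 FPKM (5.07) and *Oprl1*, the nociceptin receptor, at 46.2, 45.7 and 47.04 FPKM (5.53). The melanocortin receptors *Mc3r* and *Mc4r*, through which *Pomc* and *Agrp* products act, were at 2.89, 3.73 and 4.05 FPKM and 1.91, 1.55 and 1.46 FPKM, with log2 differences of 2.18 and 1.39, the latter call lost with quantile normalization. *Crhr1* was at 5.92, 5.91 and 5.84 FPKM and listed at 0 in the 9 other libraries. *Mchr1* and *Hcrtr1*, the receptors of the *Pmch* and *Hcrt* peptides, were at 7.35, 6.78 and 6.98 FPKM and 4.53, 4.71 and 4.75 FPKM, and the call of *Mchr1* was lost with median-ratio scaling and quantile normalization.

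Receptors that were lower or not called included those of growth hormone, leptin and insulin. *Ghr*, the growth hormone receptor, was the 1 receptor lower than in each other tissue, at 6.53, 6.80 and 6.35 FPKM in the hypothalamus against 182, 182 and 167 FPKM in liver, 461, 423 and 525 FPKM in iWAT and 49.1, 39.95 and 32.6 FPKM in GM. Its log2 difference from the mean was -4.32 (SE 0.10, limma adjusted p = 1.84e-12), without overlap of the libraries. *Lepr*, the leptin receptor, was at 1.65, 1.74 and 2.08 FPKM, above the other 9 libraries, which reached 0.785 FPKM, but its log2 difference of 0.97 was under 2-fold. *Lepr* was called higher with a pseudocount of 0.1 and with TPM, and with quantile normalization its difference was -0.14. *Insr*, the insulin receptor, was at 6.23, 5.85 and 5.98 FPKM, below the other 9 libraries (9.84 to 15.1 FPKM), with a log2 difference of -0.89, and was called lower with median-ratio scaling and with quantile normalization. *Crhr2*, the urocortin receptor, was higher in GM, at 17.8, 15.2 and 18.4 FPKM against 3.26, 4.17 and 3.95 FPKM in the hypothalamus.

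Of 36 transcription factors that mark hypothalamic regions, 33 were tested, 25 were higher than in each other tissue and 8 were neither, with a median log2 difference of 2.37 and a median level of 4.52 FPKM. Of those tested, 25 reached 1 FPKM in the hypothalamus alone, and 1626 of all 1771 tested genes that did so were called higher. Over all tested genes the share was 23.5%. *Lhx9*, *Barhl1* and *Sox14* did not pass the filter. *Nkx2-1*, which patterns the ventral hypothalamus, was at 9.68, 16.1 and 20.6 FPKM (log2 difference 3.98) and *Otp*, needed for several peptide neurons, at 12.9, 16.1 and 12.9 FPKM (3.90). *Nr5a1*, for SF-1 of the ventromedial nucleus, was at 3.17, 7.63 and 11.1 FPKM, *Fezf1* at 6.50, 12.04 and 15.4 FPKM and *Bsx*, which acts in arcuate feeding neurons, at 3.70, 9.33 and 10.8 FPKM, all listed at 0 in the other 9 libraries and lowest in Ctrl 1. *Six3* was at 10.2, 13.3 and 10.2 FPKM and *Isl1* at 10.2, 12.5 and 12.2 FPKM, closer between libraries.

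All 18 listed pan-neuronal genes were tested and higher than in each other tissue, with a median log2 difference of 6.61 and a median level of 182 FPKM, and 8 of them reached 1 FPKM in the hypothalamus alone. *Snap25*, of the vesicle fusion complex, was at 606, 561 and 545 FPKM and at most 1.25 FPKM elsewhere (log2 difference 8.84, SE 0.20, limma adjusted p = 1.24e-12). *Stmn3*, a tubulin-binding protein, was at 482, 527 and 611 FPKM (8.74) and *Rbfox3*, for the nuclear antigen NeuN, at 36.98, 39.4 and 40.05 FPKM (5.05). For these 3 genes no hypothalamus value overlapped another tissue.

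Genes that make and load transmitters were given by transmitter. Of 5 GABAergic genes 4 were higher (median 6.05), and these 4 reached 1 FPKM in the hypothalamus alone, with *Gad1*, which makes GABA, at 138, 104 and 81.3 FPKM (log2 difference 6.67) and *Slc32a1*, which loads it into vesicles, at 78.2, 69.3 and 56.9 FPKM (6.05). The exception, *Abat*, which breaks GABA down, was at 169, 139 and 117 FPKM in the hypothalamus and 107, 88.4 and 95.95 FPKM in liver, and was called higher with TPM alone. Of 5 glutamatergic genes 4 were tested and 3 were higher (median 3.53). *Slc17a6*, the vesicular glutamate transporter VGLUT2, was at 50.8, 54.8 and 53.5 FPKM (5.73), while *Slc17a7*, the form VGLUT1 of cortex, was at 1.18, 2.52 and 0.654 FPKM and did not pass the filter. Among monoamine genes, 6 of 9 were tested and 4 were higher (median 3.40). *Hdc*, which makes histamine in the tuberomammillary nucleus, was at 18.9, 35.4 and 49.6 FPKM (3.70) and *Th*, which makes the dopamine precursor, at 51.4, 27.4 and 20.5 FPKM (4.94), the former lowest and the latter highest in Ctrl 1. The serotonergic genes *Tph2* and *Slc6a4* and the noradrenergic *Dbh* were at most 0.121 FPKM in any hypothalamus library. *Slc6a3*, the dopamine transporter, was at 37.8, 7.68 and 1.45 FPKM, with Ctrl 1 the highest (log2 difference 3.23, SE 0.57). Of the 4 cholinergic genes *Ache*, which breaks acetylcholine down, was the 1 tested and was higher, at 124, 153 and 158 FPKM.

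Genes of synaptic release were all higher where tested (30 of 30 tested, of 31), with a median log2 difference of 5.46 and a median level of 80.4 FPKM, and 17 reached 1 FPKM in the hypothalamus alone. *Sv2a*, a vesicle protein, was at 191, 166 and 140.3 FPKM (7.21) and *Cplx1*, a complexin, at 223, 132 and 106 FPKM with Ctrl 1 the highest (7.06). Of 24 postsynaptic scaffolds 17 were higher (median 3.46, 10 above 1 FPKM in the hypothalamus alone), among them *Dlg4*, for PSD-95, at 137, 159.7 and 154 FPKM (6.00) and *Camk2b* at 170.2, 168 and 169 FPKM (5.03). *Camk2a* was not among them, since it was at 131, 105 and 96.5 FPKM in the hypothalamus and 126, 129 and 142 FPKM in GM.

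Receptor subunits and channels followed. All 14 tested subunits of GABA-A and glycine receptors, of 22, were higher (median 4.27), and so were all 22 tested glutamate receptor subunits, of 26 (median 3.59), with *Gria1* at 86.6, 78.2 and 73.9 FPKM and *Grin1* at 106, 107 and 101 FPKM. In these lists 12 and 20 of the tested members reached 1 FPKM in the hypothalamus alone. Of all 1771 tested genes that did so, 1626 were called higher, beside 23.5% of all tested genes. Of 24 listed voltage-gated sodium and calcium channel genes found in the table, 22 were tested and 16 were higher (median 2.96), and of 28 potassium and HCN channel genes 23 were tested and 17 were higher (median 3.02). Of these, 14 and 9 reached 1 FPKM in the hypothalamus alone. *Hcn2*, a pacemaker channel, was at 51.6, 54.3 and 55.5 FPKM (5.29). Among the channels not called was *Scn4a*, the sodium channel of skeletal muscle, at 99.8, 96.1 and 96.7 FPKM in GM and at most 0.0202 FPKM in the hypothalamus.

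Of 18 RNA-binding proteins that set splicing in neurons, 15 were higher (median 3.04), and 9 reached 1 FPKM in the hypothalamus alone, with *Celf4* at 121, 121 and 109.9 FPKM (6.68) and *Nova2* at 10.6, 11.8 and 12.1 FPKM (3.06). *Rbfox1* was at 22.9, 19.8 and 18.9 FPKM in the hypothalamus and 46.9, 44.2 and 52.5 FPKM in GM, with a log2 difference from GM of -1.18, and was not called. Over the lists with at least 5 tested members, the share called higher is set out in the plot of list shares.

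**Figure D2:**
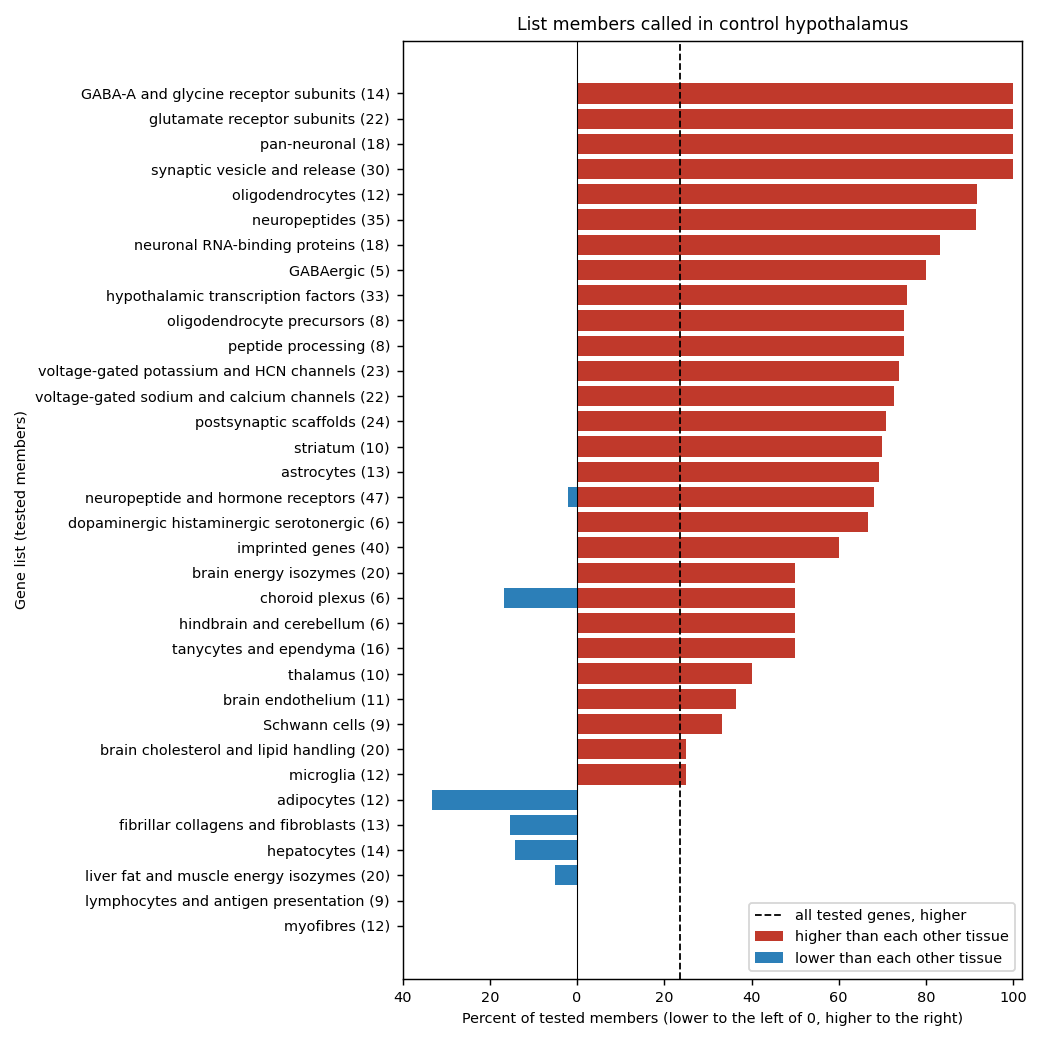
Percent of the tested members of each list that were higher (to the right) or lower (to the left) in the hypothalamus than in each of liver, iWAT and GM, for lists with at least 5 tested members. The dashed line marks the 23.5% of all 15320 tested genes that were higher, which the neuronal lists exceed (100% of pan-neuronal genes) and the hepatocyte, adipocyte and myofibre lists do not reach (0%).

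Glial transcripts were led by myelin. Of 12 oligodendrocyte genes 11 were higher than in each other tissue, with a median log2 difference of 5.32, and 5 reached 1 FPKM in the hypothalamus alone. *Mbp*, of the myelin sheath, was at 1718, 1734 and 1711 FPKM and 0.0640 to 70.4 FPKM elsewhere (log2 difference 7.07). Of 8 precursor genes 6 were higher (median 3.53), and of 13 astrocyte genes 9 (median 3.77), where 3 and 2 reached 1 FPKM in the hypothalamus alone. Astrocytes gave *Gfap* at 143, 184 and 185 FPKM (7.29), *Aldoc* at 417, 444 and 463 FPKM (7.50) and *Aqp4*, a water channel, at 36.6, 28.2 and 21.7 FPKM. *Aqp4* was also at 13.8, 14.2 and 10.2 FPKM in GM, and its call was lost in 4 of 20 other settings. *Aldh1l1*, often used to mark astrocytes, was at 26.7, 23.9 and 26.2 FPKM in the hypothalamus and 519, 433 and 514 FPKM in liver, and was not called.

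Microglia, the macrophages of the brain, share many genes with macrophages of other tissues. Of 12 listed genes 3 were higher (25%, near the 23.5% of all tested genes, with a median log2 difference of 1.22), and 1 with median-ratio scaling or quantile normalization. *Cx3cr1* was at 11.1, 8.16 and 7.87 FPKM and at most 0.953 FPKM elsewhere (3.03), and *Siglech* was at 6.36, 4.61 and 3.71 FPKM (1.93, call lost with median-ratio scaling and quantile normalization). *P2ry12* was at 10.7, 7.57 and 5.83 FPKM, and its call was lost in 5 of 20 other settings. The complement gene *C1qa* was at 31.2, 29.4 and 31.9 FPKM in the hypothalamus and at 200.4, 389 and 326 FPKM in iWAT.

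Of 16 genes of tanycytes and ependyma, the cells that line the third ventricle, 8 were higher (median 1.93), and 8 of the tested reached 1 FPKM in the hypothalamus alone. *Slco1c1*, a thyroid hormone carrier, was at 15.2, 14.1 and 15.1 FPKM (3.96), *Foxj1*, which drives motile cilia, at 9.72, 12.6 and 10.8 FPKM (3.48) and *Rax*, a tanycyte factor, at 1.48, 3.27 and 2.30 FPKM, its call lost with quantile normalization. Of 11 genes of brain endothelium 4 were higher (median 1.58, beside 23.5% of all tested genes), and 2 with either other scaling, among them *Slc2a1*, the glucose transporter GLUT1, at 52.7, 68.9 and 70.7 FPKM (3.47) and *Slc7a5*, an amino acid carrier, at 22.1, 25.9 and 29.3 FPKM (3.76). *Pecam1*, of endothelium in general, was at 9.10, 8.38 and 10.6 FPKM and at 39.5, 49.4 and 48.1 FPKM in iWAT.

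Markers of neighbouring brain parts were checked too. Choroid plexus genes were low, with *Ttr*, its main transcript, at 3.06, 3.40 and 5.50 FPKM in the hypothalamus and *Aqp1* at 0.297, 0.275 and 0.265 FPKM, and with summed levels of 15.4 to 20 FPKM over the 10 genes. Of these, 6 were tested (median 1.02), 3 higher (*Kl*, *Clic6* and *Kcnj13*, of which *Kl* was lost with both other scalings and *Kcnj13* with quantile normalization) and 1 lower (*Aqp1*). The cortical genes *Emx1*, *Neurod6*, *Tbr1* and *Neurod2* were at most 2.49 FPKM in any hypothalamus library and did not pass the filter, and *Nrgn* was the 1 higher gene of 3 tested. Of 10 thalamus genes 4 were higher (23.5% of all tested genes were, with a median of 0.63, against 0.65 here), and 1 with quantile normalization, among them *Calb2* at 163, 209.7 and 239 FPKM, and of 10 hindbrain and cerebellum genes 6 were tested (median 0.59) and 3 were higher (*Calb1*, *Barhl2* and *Cbln1*, of which *Barhl2* was lost with quantile normalization). Of 10 striatum genes 7 were higher, with a median of 3.20, and 5 reached 1 FPKM in the hypothalamus alone. Of 10 pituitary genes 1 was tested, *Gh*, for growth hormone, which was at 34.6, 42.8 and 6.04 FPKM and was called higher. The summed level of the 10 pituitary genes was 51.9, 55.2 and 8.44 FPKM in the hypothalamus and 7.17 FPKM in GM Ctrl 1, which had 5.27 FPKM of *Gh*. Of 10 Schwann cell genes 9 were tested (median 0.97) and 3 were higher, beside 23.5% of all tested genes, among them *Mbp* and *Sox10*, which oligodendrocytes share. Of 6 blood genes 4 were tested (median 0.39) and 0 were called. The part of neighbouring tissue in the calls was not tested.

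Many imprinted genes, of which cells use the copy from 1 parent, were higher in the hypothalamus. Of 46 listed, 40 were tested, 24 were higher than in each other tissue and 16 were neither, with a median log2 difference of 3.00, and 7 reached 1 FPKM in the hypothalamus alone. In the Prader-Willi region, *Ndn* was at 546, 769 and 822 FPKM (6.55) and *Magel2* at 23.3, 39.1 and 35.96 FPKM (5.02), both lowest in Ctrl 1. In the Dlk1-Meg3 region, the noncoding *Meg3* was at 624, 670.5 and 678 FPKM (5.57) and *Rian* at 261, 304 and 310.5 FPKM (5.58), and *Dlk1* at 73.7, 93.1 and 76.9 FPKM (5.97). *Nap1l5*, a histone chaperone gene inside Herc3, was at 646, 758 and 729 FPKM (8.08). *Igf2*, a growth factor that meninges and choroid plexus make, was at 66.1, 93.5 and 162 FPKM (5.27), with Ctrl 3 the highest. *Nnat*, a proteolipid of the endoplasmic reticulum, was as high in iWAT, at 862, 995 and 1353 FPKM, as in the hypothalamus, at 721, 989 and 1271 FPKM, and was called higher with quantile normalization alone. *H19*, which lies next to *Igf2*, was at 0.893, 0.917 and 1.73 FPKM in the hypothalamus and 452, 557 and 404 FPKM in GM.

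Enzymes of energy use differed by isozyme. Of 20 genes listed as brain forms, 10 were higher (median log2 difference 3.47, 2 above 1 FPKM in the hypothalamus alone), and of 20 listed as liver, fat or muscle forms 0 were higher and 1 was lower (median -2.31). *Ckb*, the brain creatine kinase, was at 964, 964 and 1102 FPKM (6.30) and *Eno2*, the neuronal enolase, at 371, 375 and 385 FPKM (7.81). *Hk1*, the hexokinase of brain, was at 72.9, 65.9 and 58.99 FPKM (3.97). *Ldha*, the muscle form of lactate dehydrogenase, was lower than in each other tissue at 144, 158 and 185 FPKM (-2.37, call lost with TPM), while *Ldhb* was at 389, 336 and 367 FPKM and 222, 184 and 193 FPKM in GM and was called higher with TPM alone.

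Of 20 genes of cholesterol and lipid handling in brain 5 were higher (25%, near the 23.5% of all tested genes, median 1.85), and 2 reached 1 FPKM in the hypothalamus alone. *Cyp46a1*, which turns brain cholesterol into a form that can leave, was at 69.3, 70.6 and 74.8 FPKM (5.68), *Fabp7*, a fatty acid carrier of astrocytes, at 86.97, 76.3 and 84.5 FPKM (5.37) and *Elovl4*, which makes very long fatty acids, at 15.1, 13.6 and 12.3 FPKM (3.79). The other 2 were *Abcg4*, a sterol exporter, and *Fa2h*, which hydroxylates myelin lipids. *Apoe*, the main lipid carrier of brain, was at 1863, 1976 and 2490.0 FPKM in the hypothalamus, 15370.0, 14730.0 and 14130.0 FPKM in liver, 4998, 5735 and 5726 FPKM in iWAT and 156, 144 and 110.0 FPKM in GM.

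The 10 largest differences among genes higher than each were led by *Ptgds*, the prostaglandin D synthase of meninges and glia, which was the most abundant transcript of each hypothalamus library. *Ptgds* (NCBI Gene 19215, chr2:25466712-25469749) was at 2809, 3309 and 6620.0 FPKM, with a log2 difference of 10.97 (SE 0.45, limma adjusted p = 2.73e-10), and Ctrl 3 was the highest. Of the 10 transcripts with the highest hypothalamus mean, *Ptgds* and *Mbp* were called higher, and *Apoe*, *Eef1a1*, *Fth1*, *Cst3*, *Ppia*, *Rplp1*, *Hspa8* and *Aldoa*, which most tissues make, were neither. With quantile normalization *Eef1a1*, *Fth1*, *Cst3*, *Ppia*, *Rplp1* and *Hspa8* were called higher, and *Hspa8* also with TPM. Besides *Pmch*, *Avp*, *Snap25*, *Pcsk1n* and *Stmn3*, given above, the 10 largest differences held *Resp18*, a granule protein, at 468, 569 and 604 FPKM (8.91), *6330403K07Rik* at 481, 600.2 and 655 FPKM (8.88) and *Tmem130* at 440.0, 506 and 514 FPKM (8.73). In number, 631 genes had at least 1 FPKM in all 3 hypothalamus libraries and under 0.1 FPKM in all 9 others, against 72 for liver, 12 for iWAT and 33 for GM counted the same way. The hypothalamus had the highest mean of the 4 tissues for 7611 tested genes (49.7%), and for 5279 (34.5%) with median-ratio scaling.

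Among the 229 genes lower than in each other tissue, the 10 with the largest difference were led by *Car3*. This gene, for carbonic anhydrase 3 of muscle and fat, was at 0.848, 0.783 and 2.27 FPKM in the hypothalamus and at least 1650.0 FPKM elsewhere (-10.80). *Fabp4*, the fatty acid carrier of fat cells and endothelium, was at 0, 0.187 and 0.283 FPKM (-8.55), *Pck1*, of gluconeogenesis, at 0.0518, 0.0611 and 0.508 FPKM (-7.55) and *C3*, of complement, at 1.24, 0.826 and 1.11 FPKM (-7.17). *Hp*, for haptoglobin, was at 0.252, 0.286 and 2.55 FPKM (-8.28) and *Cyp2e1* at 0.0963, 0.0965 and 2.04 FPKM (-8.06). *Alb*, for albumin, was at 0.0657, 0.301 and 10.98 FPKM (-7.14), and its call was lost with ordinary variances and without hypothalamus Ctrl 1, hypothalamus Ctrl 2 or iWAT Ctrl 1. *Cfd*, of fat cells, lost its call without liver Ctrl 2. *Mup10* (-6.88) and *Mup13* (-6.40), which complete the 10, belong to a family whose reads can be shared, and the call of *Mup13* was lost without hypothalamus Ctrl 1, GM Ctrl 1 or GM Ctrl 3. In 9 of the 10, all but *C3*, the highest hypothalamus library was Ctrl 3, the one with traces of liver transcripts.

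Of the lists for the cells of the other tissues, to be read beside the 1.49% of all tested genes that were lower than each, hepatocytes had 2 of 14 genes lower than each (median log2 difference -4.03), adipocytes 4 of 12 (*Fabp4*, *Cfd*, *Pparg* and *Lpl*, median -4.22) and myofibres 0 of 12 (median -4.95). A gene of 1 peripheral tissue that the other 2 lack cannot be lower than each. Fibroblast genes had 2 of 13 lower (*Dcn*, lost with TPM, and *Dpt*, median -1.54), and lymphocyte and antigen presentation genes 0 of 9 tested of 14 (median -2.25). *Dcn*, a proteoglycan of connective tissue, was at 22.3, 19.1 and 20.6 FPKM in the hypothalamus and 53.2 to 1020.0 FPKM elsewhere. None of these 5 lists had a gene higher than each.

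The share of genes that were higher was largest among the longest genes, and it did not rise steadily with length over the other groups. The annotated span on the genome, from the first to the last base of the gene, had a median of 25.7 kb for genes higher than each and 20.9 kb for all tested genes with a span, and spans over 200 kb made up 10.5% (378 of 3588) of the former and 5.13% of the latter. When the tested genes were divided into 10 groups of near-equal number by span, 613 of 1526 (40.2%) of the longest group (119.7 to 2271 kb) were higher, against 18.2% to 24.97% in the other 9. With median-ratio scaling the share was 31.1% in the longest group and 12.8% to 17.7% in the others.

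**Figure D3:**
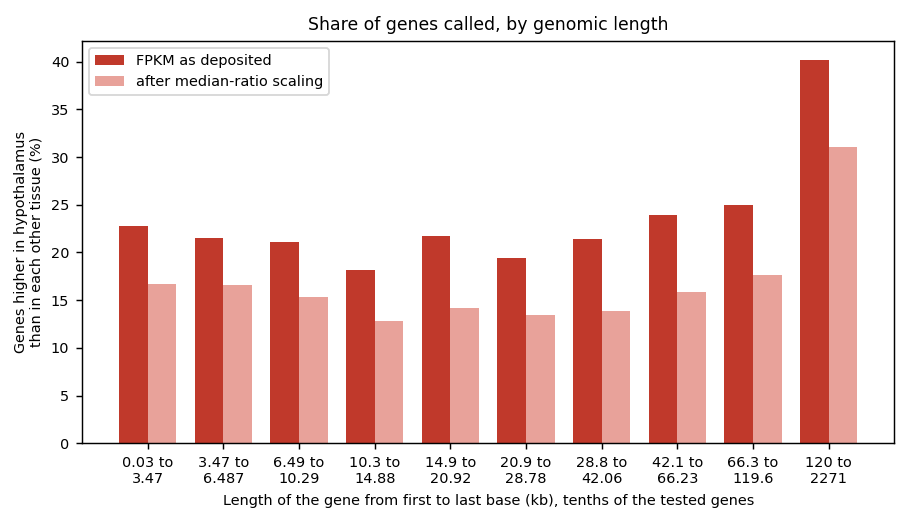
Percent of tested genes higher in the hypothalamus than in each other tissue (vertical axis) in 10 groups by annotated genomic span (horizontal axis, shortest to longest), as deposited and with median-ratio scaling. The longest group stands above the others under both, at 40.2% and 31.1%.

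By chromosome, 207 of 506 tested genes of the X chromosome (40.9%) were higher than each, against 19.02% to 27.9% of the genes of the 19 autosomes. With median-ratio scaling the count for the X chromosome was 166 (32.8%), against 11.4% to 21.3% for the autosomes. By gene type, 23.3% of protein-coding genes were higher, and noncoding types lay on both sides of that share. Higher were 52 of 154 tested miRNA genes (33.8%) and 147 of 492 long noncoding RNAs (29.9%), but 12 of 65 snoRNA genes (18.5%) and 15 of 99 transcribed pseudogenes (15.2%). The remaining types had 1 or 2 tested genes each. Genes of a chromosome and neighbours in a cluster are not independent.

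**Figure D4:**
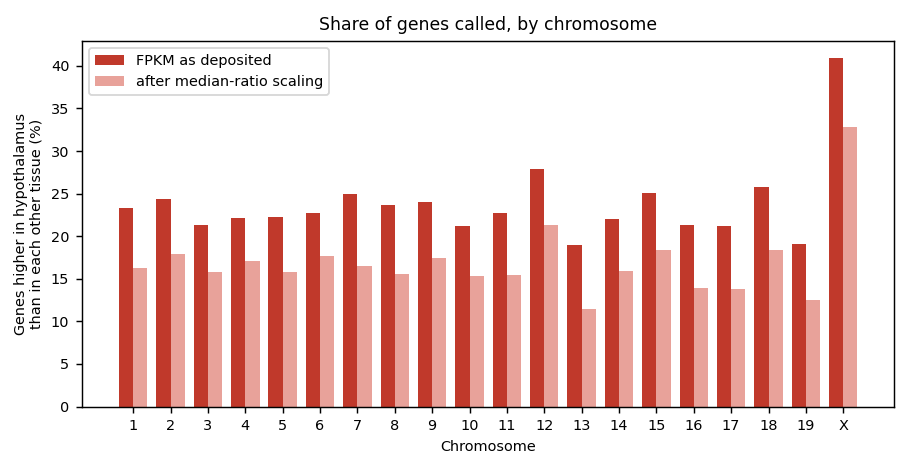
Percent of tested genes higher in the hypothalamus than in each other tissue, per chromosome (1 to 19 and X), as deposited and with median-ratio scaling. The X chromosome is the highest, at 40.9% and 32.8%.

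The 3 hypothalamus libraries differed among themselves in ways that followed gene groups, which is given as a description. Over 9805 genes with a mean of at least 5 FPKM, the SD of log2(FPKM + 1) had a median of 0.114 and a 95th percentile of 0.322, and 31 genes had an SD of at least 1. Of 14212 genes with at least 1 FPKM in a hypothalamus library, 39.7% were highest in Ctrl 1, 18.0% in Ctrl 2 and 42.4% in Ctrl 3.

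Transcripts of striatum were mostly highest in Ctrl 1. Of 10 striatum genes 8 were highest there, with a median ratio of 2.20 to the mean of the other 2 libraries, and 2 were lowest there. *Ppp1r1b*, for DARPP-32 of striatal neurons, was at 48.6, 14.3 and 18.3 FPKM and the dopamine receptor *Drd1* at 5.41, 1.46 and 1.18 FPKM, and the call of *Drd1* was lost without Ctrl 1 and in 4 further settings of 20. Of the 4 cholinergic genes 3 were highest in Ctrl 1, while *Ache*, the most abundant of them, was lowest there. *Chat*, which makes acetylcholine, was at 4.39, 0.485 and 0.376 FPKM, and *Slc5a7*, the choline transporter, at 3.58, 0.524 and 0.477 FPKM. *Lhx8*, a factor of basal forebrain cholinergic neurons, was at 5.45, 0.308 and 0.160 FPKM. All 5 GABAergic genes were highest in Ctrl 1 too, with a median ratio of 1.32. In the same library, 19 of the 35 hypothalamic transcription factors that reached 1 FPKM in a hypothalamus library were the lowest of the 3, with a median ratio of 0.789, where over all genes 6165 of 14212 were lowest in Ctrl 1. Without Ctrl 1 the counts over all genes were 3605 higher and 225 lower than each.

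Ctrl 3 differed in other groups. Over all genes 5671 of 14212 were lowest in it. Of 12 oligodendrocyte genes 12 were lowest in it (median ratio 0.794), and so were 4 of 4 pituitary genes above 1 FPKM in a library (median ratio 0.111), such as *Prl* at 8.64, 2.48 and 0.368 FPKM and *Cga* at 5.28, 6.32 and 0.232 FPKM. All 4 blood genes were highest in it (median ratio 2.42), such as *Hbb-bs* at 198, 149 and 442 FPKM, and so were 9 of the 10 hepatocyte genes above 1 FPKM in a library (median ratio 9.08), such as *Apoa1* at 0.737, 0.727 and 9.65 FPKM. Also mostly highest in it were lymphocyte and antigen presentation genes (8 of 8, 1.41) and brain endothelium genes (10 of 11, 1.21). The same held for fibroblast genes (9 of 12, 1.33) and liver, fat and muscle isozymes (13 of 16, 1.16), beside 42.4% of all genes. Of the 10 genes with the largest SD, *Atp6v0c* and its near copy *Atp6v0c-ps2*, and *Rps27* and its near copy *Rps27rt*, traded their values between libraries. The sum of the former pair was 539, 570.0 and 624 FPKM and that of the latter 429, 446 and 541 FPKM. *Slc6a3* has been given above. *Kif1b*, a kinesin, was at 68.7, 58.6 and 3.87 FPKM, *Jund*, of the AP-1 factor, at 8.47, 83.5 and 104 FPKM, *Mir8101*, inside Hdac5, at 0.0670, 7.72 and 10.6 FPKM, *Erdr1* at 105, 54.6 and 502 FPKM and *Srgap1* at 9.14, 8.93 and 0.475 FPKM. The part of dissection in these differences was not tested. The libraries do not mark strand, and the spans of many named genes overlap another gene, on the same or the opposite strand. Where exons of both genes overlap, reads may not be told apart, and overlap of exons was not checked. Such spans are those of *Pmch*, *Pcsk1n*, *Pcsk2*, *Pam*, *Thra*, *Hcn2*, *Cfd*, *Gad1*, *Grin1*, *Chat*, *P2ry12*, *Ppp1r1b*, *Rbfox1* and *Igf2*. They are also those of *Rian*, *Nnat*, *Hk1*, *Kcnj13*, *Nap1l5*, *Mir8101*, *Ache*, *Camk2a*, *C3*, *H19*, *Meg3*, *Gadd45gip1* and *Erdr1*.

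**Figure D5:**
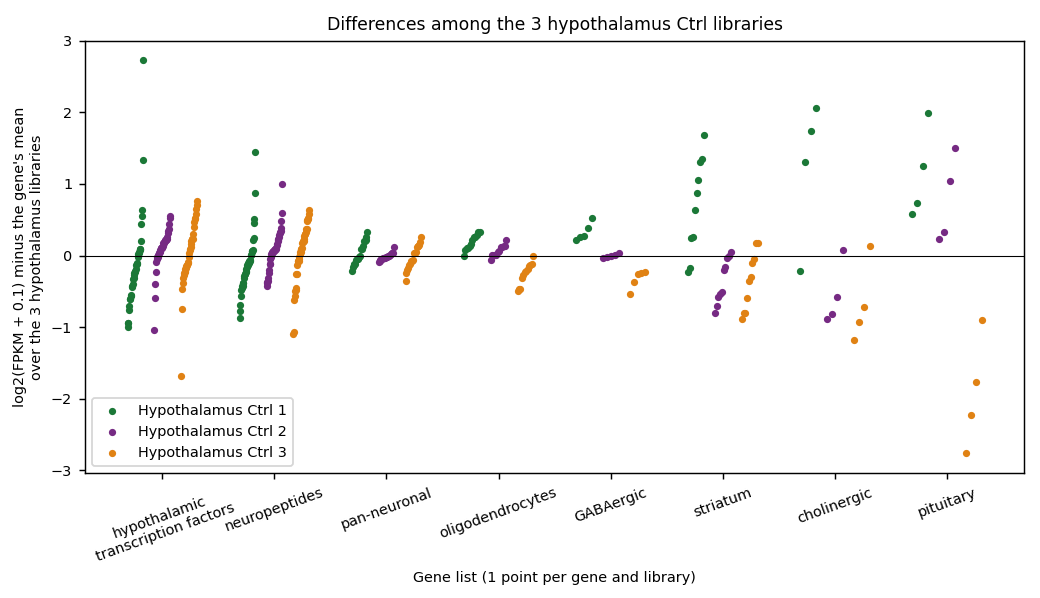
Log2(FPKM + 0.1) of each gene minus its mean over the 3 hypothalamus libraries, 1 point per gene and library, for 8 lists. Most striatum and cholinergic genes, though not *Ache*, sit above 0 in Ctrl 1, where their median ratios to the other libraries are 2.20 and 5.73. Pituitary genes sit below 0 in Ctrl 3, with a median ratio of 0.111.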

How the data were processed

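RNA was made into libraries with the TruSeq RNA v2 kit, which does not mark strand, and read as 100-nt pairs on a HiSeq4000. The submitters' processing notes name Trimmomatic 0.32, FastQC 0.11.5, HISAT2 2.0.5, Bowtie2 2.2.6, StringTie 1.3.3b, STAR 2.5.2b and mm10, without roles. For each library the authors deposited FPKM per gene, and beside it TPM and coverage from the same estimate. The values hold no counts, so no count model was run. Depth was worked out from coverage, a signal the authors deposited per gene, and FPKM. Deposited TPM served as an alternative. The joined FPKM table was used, with NCBI Gene coordinates from a RefSeq table of GRCm38.p6.

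The 12 Ctrl libraries of 4 tissues entered 1 limma 3.58.1 fit (R 4.3.3) on log2(FPKM + 1), with tissue means, no block, a trended prior variance and Benjamini-Hochberg adjustment over the 15320 genes that reached 1 FPKM in 3 or more libraries. The p-values are two-sided. The text names the 10 genes with the largest difference in each direction, the 10 most abundant, the 10 with the largest SD among hypothalamus libraries, and members of the gene lists, of which a few are not reported here. The members, the lists and the tests were chosen with earlier results of these data known. Alternatives were another pseudocount, no filter, 2 other scalings, TPM, other variance models, library weights, a replicate block, a 4-fold threshold and leaving out each library, with the tested genes kept. Python 3.11.15, pandas 2.3.3, numpy 2.4.6 and matplotlib 3.10.9 made the tables and plots.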

Additional observations from a re-analysis of the deposited data

How the results depend on the processing

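Leaving out each library in turn, with the tested genes kept, gave 3541 to 3637 genes higher and 215 to 243 lower than each other tissue. With a pseudocount of 0.1, 404 were lower. Median-ratio scaling gave 699 lower, 3641 higher and 2992 lower than the mean of the others, 4416 and 3227 against liver, 3983 and 2991 against GM, and 1 microglia and 2 endothelium genes higher. Quantile normalization gave 2209 higher and 1096 lower than each, 3153 and 3748 against the mean, 3717 and 3579 against liver and 3388 and 3640 against GM. Under it 19 receptors, 1 microglia, 2 endothelium, 1 choroid plexus and 1 thalamus gene were higher. A 4-fold limit, stricter by construction, gave 1786 and 59 for each tissue, 2663 and 713 for the mean, 3727 and 1050 for liver, 2216 and 1141 for iWAT and 3182 and 656 for GM. It left 18 receptors, 1 microglia, 2 endothelium, 1 choroid plexus and 1 thalamus gene. Without the filter, which tests more genes, 4 cholinergic, 3 pituitary and 2 cortex genes were higher. Of 1076 counts compared, 41 moved by over 1.5 times, which are those given here for a pseudocount of 0.1, no filter, both scalings and the 4-fold limit. The cause was not tested. Separate pair fits give no value against the mean.

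The log2 difference from the mean changed sign, with an adjusted p under 0.05 (limma) before or after, for 11 named genes. Others, such as *Mir8101* and *Rps27*, changed sign with neither value past it. It was -0.50 for *Aldoa*, -0.17 for *Eef1a1*, -0.64 for *Fth1* and -0.66 for *Rplp1* with median-ratio scaling, and 2.28 for *Apoe*, -0.27 for *Crhr2*, -0.14 for *Lepr* and -0.94 for *Npff* with quantile normalization. It was 0.29 for *Apoe* with TPM, -3.90 for *Atp6v0c-ps2* and 0.87 for *Kif1b* with library weights. Leaving out 1 library gave -0.96 to 0.96 for *Kif1b*, the latter without hypothalamus Ctrl 3, and -0.24 to 0.99 for *Lhx8*, the former without hypothalamus Ctrl 1.

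Tissues share replicate numbers, but deviations of same-numbered libraries correlated at -0.114 to 0.234, over 0.1 in 6 of 18 pairs, and those of differently numbered libraries at -0.173 to 0.0892, so the pairs over 0.1 were all of a shared number. Not every library correlated best with its own number: hypothalamus Ctrl 1 gave -0.114 with liver Ctrl 1 and 0.0673 with liver Ctrl 2. Pairing was required to show in every pair, so the numbers were not taken to pair libraries. With correlations this small such a rule cannot tell weak pairing from none, and independence remains an assumption. A replicate block gave 3605 higher and 236 lower genes, among them all 3603 and 229. FPKM holds no counts, so counting error of low genes is not known.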
